A study of Mus musculus with 15 samples.

Results

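The 7 genes described here encode peptidases that digest peptides at the apical surface of the kidney proximal tubule, together with Napsa, an aspartic protease of the pepsin family that is carried to lysosomes. They were Napsa, Anpep, Dpp4, Mep1a, Mep1b, Ggt1 and Dpep1, found by symbol among the 47069 genes of the deposited table, with 1 row each. Transcript levels were measured by RNA-Seq of polyA RNA. The PTS2 label marks 12 libraries, each of a microdissected proximal tubule, and 3 further libraries are whole kidney. All 15 came from male C57BL/6 mice aged 2 months, and the labels name no allele or drug for any of them. The tubules fall into 3 sets, m1, m2 and m3, with tubules numbered 1 to 4 in each. The labels say neither what the letter m nor what the number stands for, nor whether libraries came from separate animals, so the p-values measure the spread between these libraries, which may be technical. The study asked how well markers selective for single renal cell types are represented in data from the whole organ.

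The proximal tubule reabsorbs most of the filtered solutes, and its apical membrane is folded into a brush border of microvilli. Peptides that pass the glomerular filter are cut there by membrane-bound exopeptidases and endopeptidases, and the resulting amino acids and short peptides are taken up by transporters. Gamma-glutamyl transferase and membrane dipeptidase act in sequence on filtered glutathione, and the same pair of steps converts leukotrienes. Along its length the S1, S2 and S3 segments follow each other and differ in their enzymes and transporters.

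The upstream sequences of Mep1a and Dpep1 are shown because these genes were called in opposite directions against whole kidney while both windows hold the same short motif. Each window is the stretch of 250 bases before the annotated start, from RefSeq on GRCm38.p6, and RefSeq windows were matched for 5 of the 7 genes (8 windows, 4 of them for Ggt1). The capitals mark CAAAGT, a half-site of the nuclear receptor HNF4, or its reverse complement ACTTTG.
Mep1a, chr17:43502774-43503023, minus strand: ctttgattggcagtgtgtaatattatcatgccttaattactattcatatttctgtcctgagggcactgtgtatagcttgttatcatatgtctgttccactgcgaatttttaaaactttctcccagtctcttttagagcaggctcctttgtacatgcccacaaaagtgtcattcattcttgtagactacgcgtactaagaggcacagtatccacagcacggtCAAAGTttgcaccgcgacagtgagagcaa
Dpep1, chr8:123185985-123186234, plus strand: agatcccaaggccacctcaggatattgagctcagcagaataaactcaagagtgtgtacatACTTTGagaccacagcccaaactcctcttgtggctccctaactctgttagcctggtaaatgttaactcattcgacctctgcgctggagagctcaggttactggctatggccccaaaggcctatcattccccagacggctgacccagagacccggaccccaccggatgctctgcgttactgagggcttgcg
The motif starts at position -29 relative to the RefSeq start of Mep1a and at -190 relative to that of Dpep1, where it lies on the opposite strand. The annotations differ for Mep1a: its GENCODE span, given below, reaches to 43502812. By GENCODE the Mep1a motif therefore lies inside the gene and not upstream of it. The Anpep window and all 4 Ggt1 windows also lie inside the GENCODE spans of their genes. CAAAGT was found on either strand in 12.6% of the 32851 RefSeq windows of the same length, so its presence in both windows is a description of the letters only. The other motifs searched, also on both strands, were GTTAAT, an HNF1 half-site (6.43% of windows), AGAACA, a steroid receptor half-site (16.1%), and TATAAA (12.4%). The Dpp4 window held AGAACA at -203 and TATAAA at -227, and 1 of the 4 Ggt1 windows held CAAAGT at -195 and TATAAA, on the opposite strand, at -134. The Anpep window held none of these.

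Some facts about the libraries bear on every value below. Values are TPM, abundances scaled to transcript length and to a common total in each library. Since this unit drops the number of reads, depth is unknown and counting error cannot be stated. The label PTS2 names the middle segment, but the markers were mixed. The S1 transporters Slc5a2 and Slc5a12 lay at 0 to 1.38 TPM and 0.01 to 0.23 TPM in the tubules, and the 4 S3 markers summed to 2512 to 4490 TPM against 1285 to 1702 TPM in whole kidney. The S2 organic anion transporter Slc22a6 lay at 339 to 988 TPM in tubules and 435 to 512 TPM in whole kidney, and Slc22a8 at 24.7 to 161 TPM against 261 to 284 TPM. Replicate 3 of set m3 stood apart, with 1441 TPM of the 5 thick ascending limb markers, against at most 55.8 TPM in the other 11 tubules and 2425 to 2723 TPM in whole kidney. Whole kidney holds many cell types, so a lower level in such bulk RNA cannot tell fewer cells of one type from less RNA per cell.

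Against whole kidney, 4 of the 7 genes were higher in PTS2 tubules: Napsa, Mep1b, Mep1a and Ggt1. Dpep1 was lower, and Anpep and Dpp4 did not pass the test. The test was limma on log2(TPM + 1) with Benjamini-Hochberg adjustment over 12039 genes and a threshold of 0.05. Of all genes tested, 8.69% were called higher in tubules and 38.2% lower. The median log2 difference was 0.82 for the 7 genes and -0.27 for all genes tested. That last value depends on the scaling. It was -0.00 after median-of-ratios rescaling and 0.15 after quantile normalization, and the share of calls that were higher moved from 18.5% to 49.8% and 64.0%. Napsa, Mep1a, Mep1b, Ggt1 and Dpep1 kept their direction and call under both scalings. Anpep was then also called higher, which made 5 of 7, where 21.7% and 31.6% of all genes were called higher. Without replicate 3 of set m3 the counts were the same, 4 higher and 1 lower, and Napsa, for example, differed by 1.43.

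**Figure D1:**
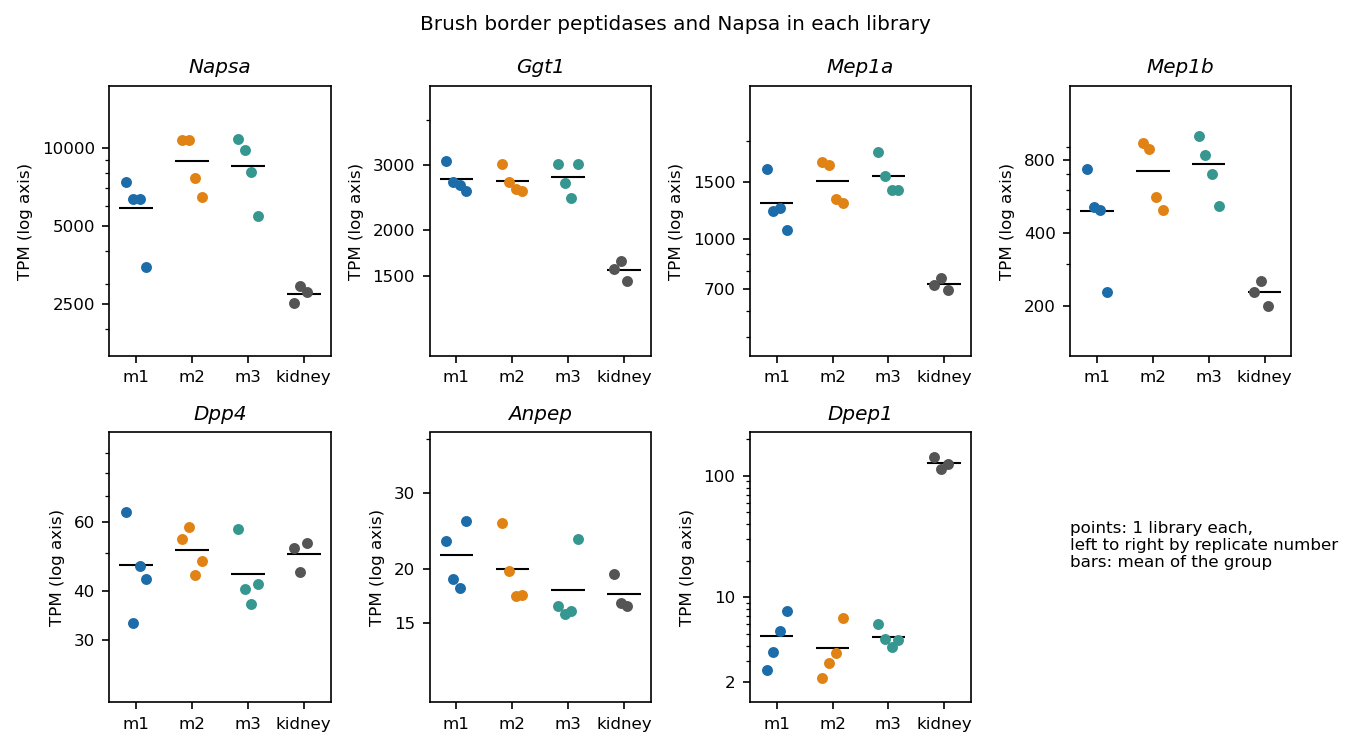
TPM of each gene (log axis, 1 panel per gene) in the 4 tubules of sets m1, m2 and m3 and in the 3 whole kidney libraries; points are libraries, ordered by replicate number, and bars are group means. All 12 tubules lie above whole kidney for Napsa, Ggt1 and Mep1a and all 12 lie below it for Dpep1, while Dpp4 and Anpep overlap.

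Napsa (ENSMUSG00000002204, chr7:44572380-44586862 on GRCm38, plus strand) was the most abundant of the 7 genes. Its longest annotated transcript has 9 exons and 1560 bases. In set m1 it was at 7392, 6347, 6342 and 3470 TPM in tubules 1 to 4. In m2 the values were 10802, 10731, 7642 and 6452 TPM, and in m3 they were 10874, 9835, 8100 and 5474 TPM. Whole kidney gave 2520, 2936 and 2774 TPM, so every tubule lay above every kidney library, as for 5.76% of all genes tested. The means were 7789 ± 2368 TPM (SD, n = 12) and 2743 ± 210 TPM (SD, n = 3), a ratio of 2.84. The log2 difference was 1.44 ± 0.29 (SE; limma adjusted p = 0.000597), with a 95% interval of 0.84 to 2.04. Ordered from the highest log2 difference, it ranked 39 of the 12039 genes tested. Napsa alone made up 0.779% of all TPM in tubules and 0.274% in whole kidney, and its median abundance rank over the tubules was 9, ranging from 3 to 34. It shares exon bases with Gm15396 on the opposite strand, and the cDNA kit does not mark strand, so reads from the pair could not be told apart.

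Mep1a and Mep1b encode the alpha and beta subunits of meprin, a metalloendopeptidase of the brush border in which the beta subunit holds the complex in the membrane. Mep1a (ENSMUSG00000023914, chr17:43474324-43502812, minus strand) was at 1643, 1216, 1245 and 1063 TPM in set m1. It was at 1721, 1687, 1323 and 1294 TPM in m2 and at 1846, 1561, 1413 and 1414 TPM in m3. Whole kidney gave 720, 757 and 699 TPM, again with no overlap. The log2 difference was 0.98 ± 0.15 (SE; limma adjusted p = 3.69e-05), and the ratio of means was 2.00. Mep1b (ENSMUSG00000024313, chr18:21061923-21100199, plus strand) was at 730, 511, 496 and 229 TPM in m1. It was at 932, 886, 560 and 500 TPM in m2 and at 1003, 839, 699.7 and 517 TPM in m3. Whole kidney gave 230, 255 and 201 TPM, and 11 of the 12 tubules lay above all of these. The exception was tubule 4 of m1, whose 229 TPM fell within the kidney range. The log2 difference was 1.43 ± 0.34 (SE; limma adjusted p = 0.00284), and the ratio of means was 2.88.

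Ggt1 and Dpep1, which act in sequence on glutathione, went in opposite directions. Ggt1 (ENSMUSG00000006345, chr10:75561604-75586200, plus strand) encodes gamma-glutamyl transferase, which removes the gamma-glutamyl group. It was at 3086, 2697, 2660 and 2555 TPM in m1. It was at 3026, 2710, 2591 and 2555 TPM in m2 and at 3035, 2688, 2442 and 3020 TPM in m3. Whole kidney gave 1563, 1649 and 1453 TPM, below every tubule. Ggt1 was the least variable of the 7 genes among tubules, with a coefficient of variation of 8.16% against 30.4% for Napsa. Its log2 difference was 0.82 ± 0.087 (SE; limma adjusted p = 7.23e-07).

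Dpep1 (ENSMUSG00000019278, chr8:123186242-123201812, plus strand) encodes the membrane dipeptidase that splits the cysteinyl-glycine left by Ggt1. It was at 2.54, 3.57, 5.31 and 7.73 TPM in m1. It was at 2.19, 2.90, 3.46 and 6.77 TPM in m2 and at 6.02, 4.59, 3.91 and 4.46 TPM in m3. Whole kidney gave 142, 113 and 125 TPM, above every tubule, as for 32% of all genes tested. The tubule mean was 4.45 ± 1.72 TPM (SD, n = 12) and the kidney mean 127 ± 14.4 TPM (SD, n = 3), a 28.5-fold higher level in whole kidney. The log2 difference was -4.61 ± 0.28 (SE; limma adjusted p = 8.61e-10), which understates the ratio because 1 TPM was added to every value. Expressed within each library, Ggt1 exceeded Dpep1 by 331 to 1382 times in tubules and by 11.0 to 14.5 times in whole kidney. The 3 S1 markers moved the same way as Dpep1, with sums of 36.3 to 79.9 TPM in tubules and 818 to 892 TPM in whole kidney, and their part in the result was not tested.

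The remaining pair trims single residues or dipeptides from the amino end of peptides and gave no call. Dpp4 (ENSMUSG00000035000, chr2:62330073-62412231, minus strand) encodes dipeptidyl peptidase, which removes dipeptides that end in proline or alanine. It was at 63.6, 33.2, 46.4 and 43.0 TPM in m1, at 54.3, 58.4, 43.9 and 47.8 TPM in m2 and at 57.8, 40.6, 37.0 and 41.8 TPM in m3. Whole kidney gave 51.6, 44.7 and 53.0 TPM, inside the range of the tubules. The log2 difference was -0.09 ± 0.18 (SE; limma adjusted p = 0.694), with a 95% interval of -0.47 to 0.28. Its sign turned under both scalings, to 0.19 (adjusted p = 0.345) and 0.11 (adjusted p = 0.592). Gm13561, which overlaps Dpp4 on the opposite strand, was listed at no more than 0.12 TPM in any library.

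Anpep (ENSMUSG00000039062, chr7:79821803-79861059, minus strand) encodes aminopeptidase N, which removes neutral amino acids. It was at 23.2, 19.0, 18.1 and 25.9 TPM in m1, at 25.5, 19.8, 17.4 and 17.4 TPM in m2 and at 16.4, 15.7, 16.0 and 23.4 TPM in m3. Whole kidney gave 19.4, 16.7 and 16.4 TPM, and 5 of 12 tubules lay above all of these. The log2 difference was 0.15 ± 0.16 (SE; limma adjusted p = 0.466), with a 95% interval of -0.19 to 0.50. It was 0.43 (adjusted p = 0.0329) after median-of-ratios rescaling and 0.59 (adjusted p = 0.00406) after quantile normalization, so the call depends on the scaling.

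**Figure D2:**
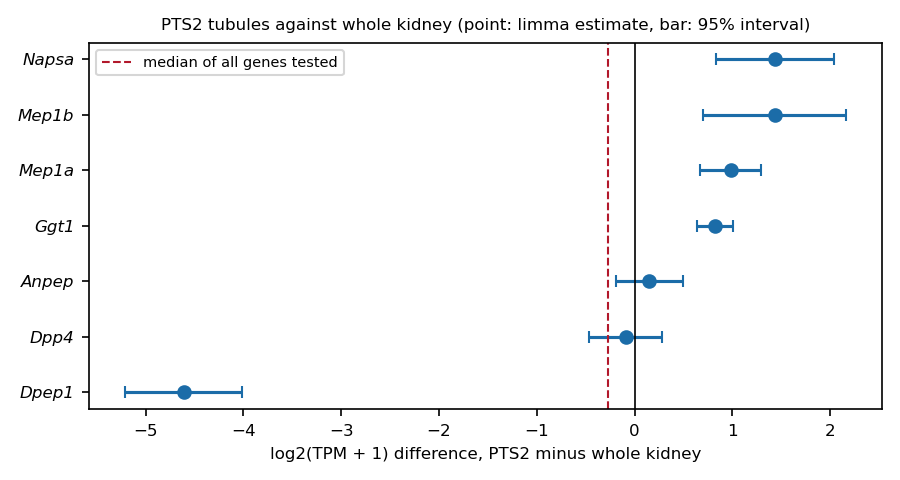
Difference in log2(TPM + 1) between PTS2 tubules and whole kidney for the 7 genes; points are limma estimates, bars are 95% intervals and the dashed line is the median of all genes tested. The intervals of Napsa (0.84 to 2.04), Mep1b, Mep1a and Ggt1 lie above 0, that of Dpep1 lies below it, and those of Anpep and Dpp4 include 0.

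Because TPM are scaled to transcript length, levels can be set side by side between genes. In tubules the order of mean TPM was Napsa (7789), Ggt1 (2756), Mep1a (1452), Mep1b (659), Dpp4 (47.3), Anpep (19.8) and Dpep1 (4.45). Each gene's 12 tubules lay above those of the next gene in this order, without overlap. In whole kidney the order was Napsa (2743), Ggt1 (1555), Mep1a (725), Mep1b (229), Dpep1 (127), Dpp4 (49.8) and Anpep (17.5), also without overlap between neighbours. The orders differ in the place of Dpep1, last in tubules and between Mep1b and Dpp4 in whole kidney. Summed over the 7 genes, the level was 12726 ± 2900 TPM (SD, n = 12) in tubules and 5447 ± 284 TPM (SD, n = 3) in whole kidney. Napsa held 61.2% of this sum in tubules and 50.4% in whole kidney, and Ggt1 held 21.7% and 28.6%.

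Among the 3 sets, 0 of the 7 genes passed the F test (limma, adjusted over 11300 genes, with no term for the number), against 3.02% of all genes tested. At an unadjusted p under 0.05 the count was also 0, against 1857 of the 11300 genes, so with only 7 genes it says little. The lowest adjusted p was 0.348, for Napsa, followed by 0.402 for Mep1b, and the highest was 0.964, for Ggt1. Napsa averaged 5888 ± 1686 TPM over the 4 tubules of m1 (SD). The averages of m2 and m3 were 8907 ± 2202 and 8571 ± 2361 TPM (SD, 4 tubules each). Mep1b averaged 492 ± 205, 719 ± 221 and 765 ± 207 TPM in the same order. The sets overlapped for both genes, but at each number the m1 tubule was the lowest of the 3. Spread between numbers stays in the error of this test, so it cannot show that the sets were alike. With the number as a replicate block, Napsa (F test adjusted p = 0.00247) and Mep1b (adjusted p = 0.0138) passed. The numbers did not meet the criterion used for pairing the tubules.

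Within the sets, tubules differed by their number. The tubule numbered 1 was the highest of its set in all 3 sets for Napsa, Mep1a, Mep1b and Ggt1, and the tubule numbered 4 was the lowest in all 3 sets for Napsa and Mep1b. How many of all genes show these orders was not counted. With the set as a term, 3 of the 7 genes passed the F test over the 4 numbers (Napsa, Mep1a and Mep1b), against 2.71% of all genes tested. The same 3 were lower in number 4 than in number 1 by the contrast, against 3.07% of all genes, and 0 of the 7 were higher, against 1.69%. The median of this contrast was -0.40 over the 7 genes and -0.05 over all genes tested. For 5 of the 7 genes (also Ggt1 and Dpp4) the 3 tubules numbered 1 all lay above the 3 numbered 4, as for 13.1% of all genes tested. The reverse held for 0 of the 7 and for 5.16% of all genes. Number 1 exceeded number 4 within each set for the same 5, as for 25.1% of all genes, and lay below it in each set for 0 of the 7, as for 12.3%.

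The tubules numbered 1 and 4 differed most in Mep1b. It averaged 889 ± 142 TPM (SD, n = 3) in number 1 and 415 ± 161 TPM (SD, n = 3) in number 4, and number 4 minus number 1 came to -1.17 ± 0.15 on the log2 scale (SE; limma adjusted p = 0.00253). Napsa averaged 9690 ± 1990 and 5132 ± 1520 TPM (SD, n = 3 each), and number 4 minus number 1 came to -0.94 ± 0.098 on the log2 scale (SE; limma adjusted p = 0.00174). For both genes the number 4 tubules of m2 and m3 lay below the number 1 tubule of m1, so the groups did not overlap. Mep1a averaged 1736 ± 103 and 1257 ± 178 TPM (SD, n = 3 each), and number 4 minus number 1 came to -0.47 ± 0.079 on the log2 scale (SE; limma adjusted p = 0.00702). Ggt1 differed by -0.17 ± 0.071 (SE; limma adjusted p = 0.250), with a 95% interval of -0.33 to -0.02. It passed in 1 of 18 alternatives, without tubule 4 of m3 (log2 difference -0.27, limma adjusted p = 0.0206). The 3020 TPM of that tubule was close to the number 1 tubules. With other single tubules left out, the adjusted p of Ggt1 reached 0.620.

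Dpep1 pointed the other way, at 3.58 ± 2.12 TPM in number 1 and 6.32 ± 1.68 TPM in number 4 (SD, n = 3 each), and number 4 minus number 1 came to 0.74 ± 0.29 on the log2 scale (SE; limma adjusted p = 0.220). Its tubules numbered 1 and 4 overlapped, with tubule 1 of m3 at 6.02 TPM, and without that tubule the difference was 1.13 (limma adjusted p = 0.0435). This was the 1 call among 17 alternatives. With other single tubules left out, the adjusted p of Dpep1 reached 0.616. Dpp4 differed by -0.40 ± 0.16 (SE; limma adjusted p = 0.236) and Anpep by 0.04 ± 0.16 (SE; limma adjusted p = 0.951). The calls of Napsa and the meprins rest on the set term: without it the contrast gave limma adjusted p = 0.124 for Napsa, 0.131 for Mep1a and 0.105 for Mep1b. The F test of Mep1a also lost its call in 9 of the 12 fits that left out 1 tubule, replicate 3 of m3 among them (adjusted p = 0.0641).

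**Figure D3:**
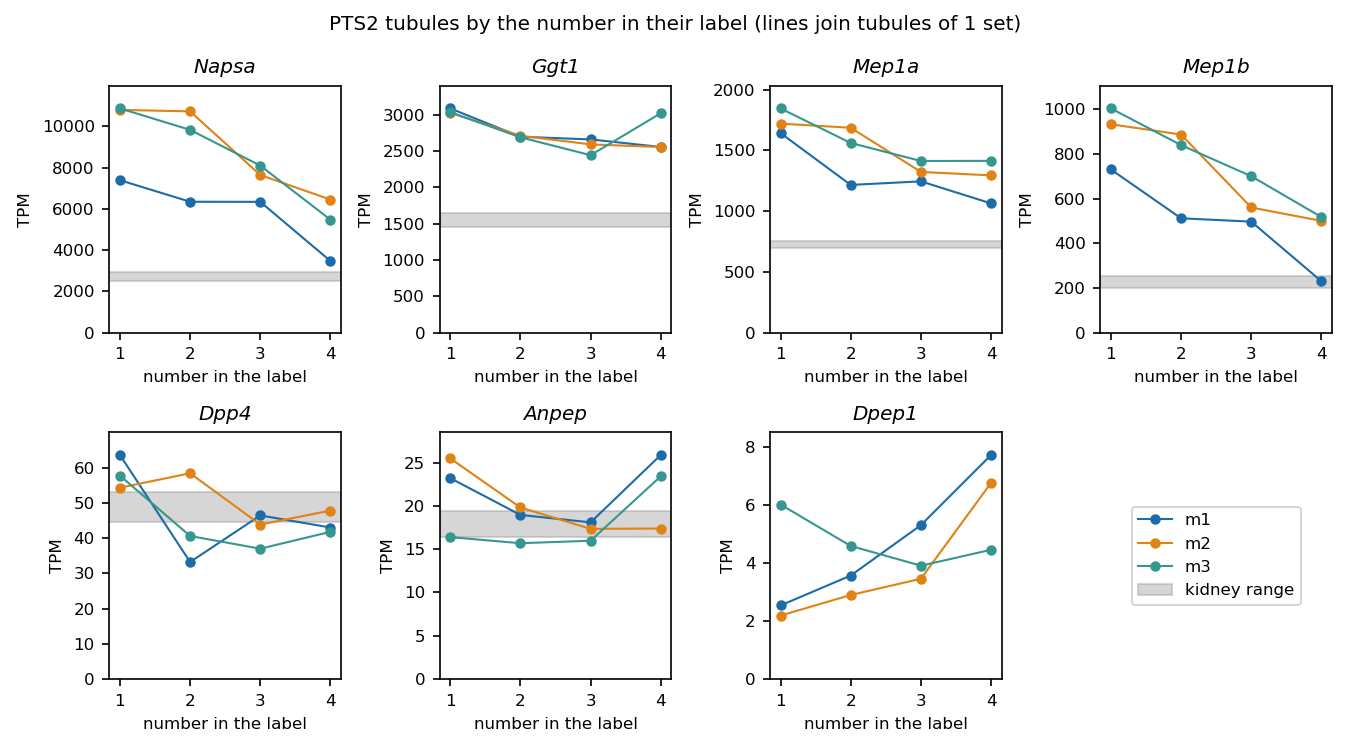
TPM of each gene by the number in the tubule's label, with lines joining the 4 tubules of a set and a grey band for the range of whole kidney (113 to 142 TPM for Dpep1, above its panel). Number 1 is the highest tubule of every set for Napsa, Mep1a, Mep1b and Ggt1, and tubule 4 of m1 reaches the kidney range for Mep1b.

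Segment markers differed along the same numbers. The 2 S2 markers were both higher in number 4: Slc22a8 by 1.78 (limma adjusted p = 0.00263) and Slc22a6 by 1.07 (limma adjusted p = 0.00335). Of the 4 S3 markers, Slc22a7 (-1.02, limma adjusted p = 0.00263) and Slc7a13 (-0.31, limma adjusted p = 0.0275) were lower in number 4. Slc7a13 lost this call under both scalings (adjusted p = 0.0702 after median-of-ratios rescaling and 0.0838 after quantile normalization). The S3 sum was 4167 to 4490 TPM in the tubules numbered 1 and 2512 to 3455 TPM in those numbered 4, without overlap. The S2 sum was 368 to 704 and 892 to 1149 TPM, also without overlap. Of the 3 S1 markers, the glucose transporter Slc2a2 was higher in number 4 by 0.71 (limma adjusted p = 0.00274). The other two were too low for the fit: Slc5a12 was lower in number 4, at 0.03 to 0.08 TPM against 0.09 to 0.18 TPM, and Slc5a2 overlapped, with means of 0.610 TPM in number 4 and 0.707 TPM in number 1. Of the 9 non-proximal marker lists, the sums of 6 overlapped between numbers 1 and 4, for the thick ascending limb at 7.87 to 10.8 TPM in number 1 and 4.75 to 55.8 TPM in number 4. The principal cell sum was higher in number 4, at 21.6 to 50.5 TPM against 7.92 to 17.2 TPM, mostly through the water channel Aqp3 (1.36, limma adjusted p = 0.00543), while the defining marker Aqp2 overlapped, with means of 2.54 and 0.873 TPM. The macrophage sum was lower, at 27.9 to 42.8 TPM against 49.3 to 80.2 TPM, mostly through Csf1r (-1.16, limma adjusted p = 0.00174), while C1qa overlapped at 0.93 to 3.22 and 1.00 to 2.38 TPM. The distal convoluted tubule sum was at most 0.50 TPM in both, with number 4 lower. The part of these markers in the differences of Napsa and the meprins was not tested.

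Ratios within a library show which of the genes moved together. Napsa exceeded Mep1b 12.1 ± 1.39 times (SD, n = 12) in tubules and 12.1 ± 1.53 times (SD, n = 3) in whole kidney. Napsa exceeded Mep1a 5.27 ± 0.992 times in tubules and 3.78 ± 0.248 times in whole kidney, with overlap. The ratio of Mep1a to Mep1b was not fixed. It was 1.84 to 2.25 in the tubules numbered 1, 2.59 to 4.64 in those numbered 4 and 2.97 to 3.49 in whole kidney. Against Ctsd, which encodes the lysosomal aspartic protease cathepsin D, Napsa was 5.98 to 17.7 times as abundant in tubules and 3.44 to 4.37 times in whole kidney.

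**Figure D4:**
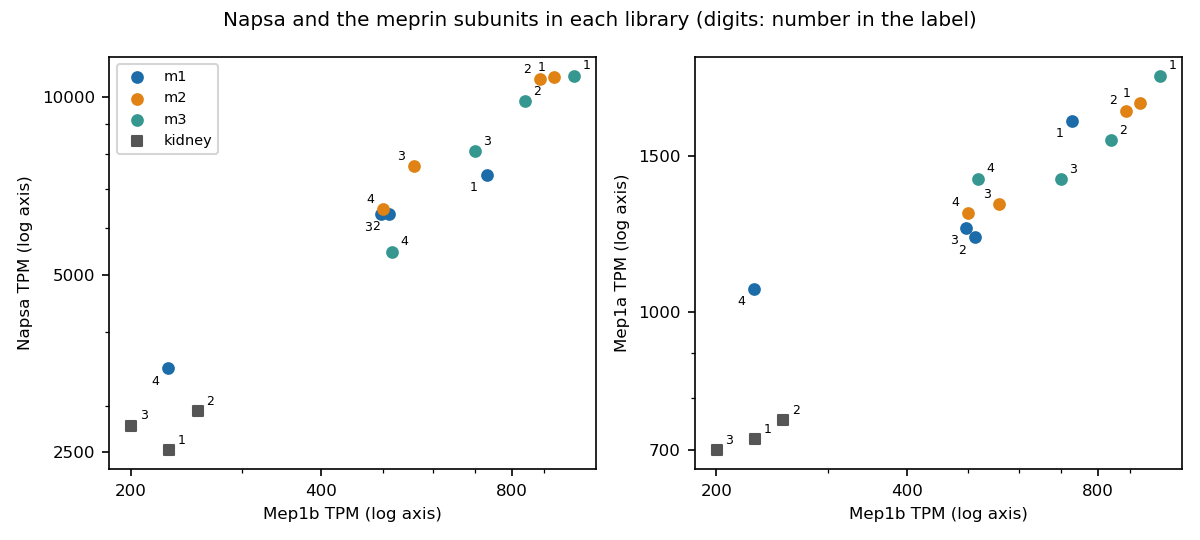
Napsa (left) and Mep1a (right) against Mep1b in TPM (log axes), 1 point per library, with the digit giving the number in the label. Napsa keeps close to 12.1 times Mep1b in tubules and whole kidney, while Mep1a spans a smaller range than Mep1b and tubule 4 of m1 has the highest ratio, 4.64.

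Across the 12 tubules, which share sets and numbers, Pearson r of log2(TPM + 1) was 0.972 between Napsa and Mep1b, 0.933 between the meprin subunits and 0.875 between Napsa and Mep1a. Ggt1 was closest to Mep1a, at 0.654. Dpep1 had negative coefficients with the other 6 genes, from -0.225 with Anpep to -0.584 with Mep1b. Among 6446 genes that averaged 10 TPM or more in tubules, those most like Napsa were Serpina1f (r = 0.992), Gdpd3 (0.975) and Mep1b. Those most like Mep1b were Slc9a8 (0.991), a sodium and proton exchanger, Gpm6a (0.986) and Mmab (0.982). For Mep1a they were Crot (0.983), Acss2 (0.978) and Fads1 (0.975), which encode enzymes of fatty acid and acetyl-CoA metabolism. For Ggt1 the closest were Stradb (0.944), Vac14 (0.941) and Evc (0.928), and for Dpp4 they were Fzd1 (0.919), Erbb3 (0.916) and Atg12 (0.907). Anpep was most like Gatsl2 (0.885), Rdx (0.872), which links microvilli to actin, and Lrp2 (0.870), the endocytic receptor megalin. For Dpep1 they were 4933434E20Rik (0.870), U2af1l4 (0.792) and Tmsb4x (0.781). These coefficients are descriptions of 12 libraries.

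Other listed peptidases of the cell surface, not all of them apical, showed no common direction against whole kidney. Of 18 such genes, 9 averaged 1 TPM or more; 2 were higher in tubules, 3 were lower and 4 did not pass. Their median log2 difference was -0.50, against -0.27 for all genes tested. After median-of-ratios rescaling 4 were higher and 3 lower (median -0.22), and after quantile normalization 3 were higher and 2 lower (median 0.05). Ace, which encodes the angiotensin-converting enzyme, was higher at 72.9 ± 15.8 TPM against 38.0 ± 2.40 TPM (log2 difference 0.90, limma adjusted p = 0.000774). Folh1, a folate and glutamate carboxypeptidase, was lower at 21.3 ± 9.74 TPM against 95.9 ± 6.48 TPM (-2.24, limma adjusted p = 7.51e-05). Cpm, carboxypeptidase M, was at 0.860 ± 0.718 TPM against 13.1 ± 4.32 TPM. It is counted among the 3 lower genes but passed the filter only through whole kidney, so that direction was fixed by the filter. Lnpep was also lower (-0.81, limma adjusted p = 0.000485), but at 0.05 after quantile normalization it turned sign and did not pass.

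By number, 3 of 8 surface peptidases tested passed the F test. Mme, which encodes neprilysin, was lower in number 4, as Napsa was, at 35.6 to 65.2 TPM against 78.0 to 130 TPM in number 1 (log2 difference -0.95, limma adjusted p = 0.0104). Enpep, aminopeptidase A, was higher in number 4, at 68.7 to 82.5 TPM against 36.4 to 51.8 TPM (0.79, limma adjusted p = 0.0110). Folh1 was higher as well (0.97, limma adjusted p = 0.0101). Calls among the surface peptidases lay on both sides of the contrast.

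Of 15 soluble peptidases and aminoacylases, 6 were higher in tubules, 1 was lower and 8 were not called. Among all genes tested, 8.69% were called higher and 38.2% lower. Their median was -0.05, and it was 0.22 and 0.32 under median-of-ratios rescaling and quantile normalization. Acy3, an aminoacylase, was the most abundant at 5539 ± 430 TPM against 2912 ± 380 TPM (log2 difference 0.93, limma adjusted p = 3.02e-07). Acy1 (1.17, limma adjusted p = 1.34e-06), Lap3 (0.70, limma adjusted p = 8.03e-05) and Cndp2 (0.69, limma adjusted p = 0.0129) were higher too. By number, 2 of the 15 passed the F test, Cndp1 and Cndp2, which encode carnosinases, and by the contrast both were higher in number 4 (0.36 and 0.59, limma adjusted p = 0.0391 and 0.00711). Acy1 (-0.40, limma adjusted p = 0.0440) and Dpp7 (-0.45, limma adjusted p = 0.0470) were lower. The F test of Cndp2 was not passed after quantile normalization (adjusted p = 0.0791), nor that of Cndp1 without replicate 3 of m3 (adjusted p = 0.0945). The contrast was lost for Acy1 and Dpp7 after median-of-ratios rescaling (adjusted p = 0.0580 and 0.0708) and for Acy1, Dpp7 and Cndp1 without replicate 3 of m3 (adjusted p = 0.0641, 0.0718 and 0.0659). Of 6 aspartic proteases related to Napsa, 3 were tested. Ctsd was at 616 ± 45.5 TPM against 723 ± 46.2 TPM (-0.23, limma adjusted p = 0.0263) and Bace1 differed by -1.11 (limma adjusted p = 2.95e-05). After median-of-ratios rescaling Ctsd turned to 0.06 and did not pass, while Bace1 stayed lower. Renin, Ren1, averaged 0.605 TPM in tubules and 111 TPM in whole kidney, and it passed the filter of 1 TPM only through whole kidney, so its lower level was fixed by the filter.

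Of 8 listed genes of the glutathione cycle, 7 were tested and each was higher in tubules, also under both scalings and without replicate 3 of m3. Among all genes tested, 8.69% were called higher, and 21.7% and 31.6% after median-of-ratios rescaling and quantile normalization. The list covers genes of glutathione synthesis and turnover, and its median log2 difference was 0.84. It leaves out Ggt1, which was higher in tubules, and Dpep1, which was lower. Gss, glutathione synthetase, was at 1089 ± 133 TPM against 533 ± 42.6 TPM (1.02, limma adjusted p = 2.56e-06). Ggct (1.02, limma adjusted p = 2.22e-06), Gclm (0.91, limma adjusted p = 7.30e-06) and Nat8, which acetylates cysteine conjugates (0.84, limma adjusted p = 6.34e-05), gave similar differences. By number, 2 of the 7 passed the F test, Gclc and Oplah, and both were lower in number 4 (-0.96 and -0.61, limma adjusted p = 0.00391 and 0.00305). By the contrast alone, Gss was lower as well (-0.40, limma adjusted p = 0.0167) and Nat8 was higher (0.33, limma adjusted p = 0.0292).

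Transporters that take up peptides and amino acids were split, with 6 of 12 higher and 6 lower. The lower ones included Slc6a19, the main carrier for neutral amino acids, at 10.6 ± 1.84 TPM against 251 ± 41.5 TPM (log2 difference -4.44, limma adjusted p = 5.93e-13). Slc7a8 (-3.87), Slc7a7 (-2.47) and Slc3a2 (-2.19), which serve the basolateral exit, were lower as well (limma adjusted p = 2.05e-07, 5.75e-09 and 8.41e-07). Tmem27, the partner that carries Slc6a19 to the surface, was the most abundant at 2788 ± 214 TPM against 3432 ± 139 TPM (-0.30, limma adjusted p = 0.00501). It lost its call after median-of-ratios rescaling (-0.01). By number, Slc15a2, a peptide transporter, and Slc3a1, a subunit of the cystine transporter, passed the F test and were lower in number 4 by the contrast (-0.60 each, limma adjusted p = 0.00778 and 0.00388). Without replicate 3 of m3 the F test of Slc15a2 was not passed (adjusted p = 0.0501). By the contrast alone, Slc6a18 was lower in number 4 as well (-0.53, limma adjusted p = 0.0142), and 0 of the 12 were higher.

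Of 12 structural genes of the brush border that were tested, 4 were higher, 1 was lower and 7 did not pass, with a median log2 difference of 0.34. These counts depend on the scaling: 7 were higher and 0 lower after median-of-ratios rescaling (median 0.63), and 7 were higher and 1 lower after quantile normalization (median 0.41). The scaffold Pdzk1 was at 1405 ± 107 TPM against 1050 ± 23.7 TPM (0.42, limma adjusted p = 0.000413), and Slc9a3r1 (0.52, limma adjusted p = 0.000133) and Ush1c (0.43, limma adjusted p = 0.00112) were also higher. Ezr, which encodes ezrin, was lower (-0.47, limma adjusted p = 0.00174), and not called after median-of-ratios rescaling (-0.18, adjusted p = 0.0818). By number, the microvillar cadherins Cdhr2 and Cdhr5 passed the F test. By the contrast both were lower in number 4 (-1.50 and -0.44, limma adjusted p = 0.00183 and 0.0113), and 0 of the 12 were higher. Espn was lower by the contrast alone (-0.43, limma adjusted p = 0.0249), a call lost after median-of-ratios rescaling (adjusted p = 0.0567). The F test of Cdhr5 was not passed after median-of-ratios rescaling (adjusted p = 0.0529) or without replicate 3 of m3 (adjusted p = 0.0709). For each of the 9 marker lists of non-proximal cell types, the summed TPM of every tubule lay below that of every kidney library, for endothelium at 27.3 to 105.6 TPM against 324 to 344 TPM. The macrophage sums were 27.9 to 80.2 TPM against 96.1 to 120 TPM. Of the 5 macrophage markers tested, 4 were lower. Among them Cd68, at 0.782 TPM against 4.91 TPM, passed the filter only through whole kidney, so its direction was fixed by the filter. Csf1r averaged 39.1 TPM against 21.1 TPM (0.77, limma adjusted p = 0.0703). It was called higher after median-of-ratios rescaling (adjusted p = 0.0131) and quantile normalization (adjusted p = 0.00584). The part of other cell types in the kidney values was not tested.

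**Figure D5:**
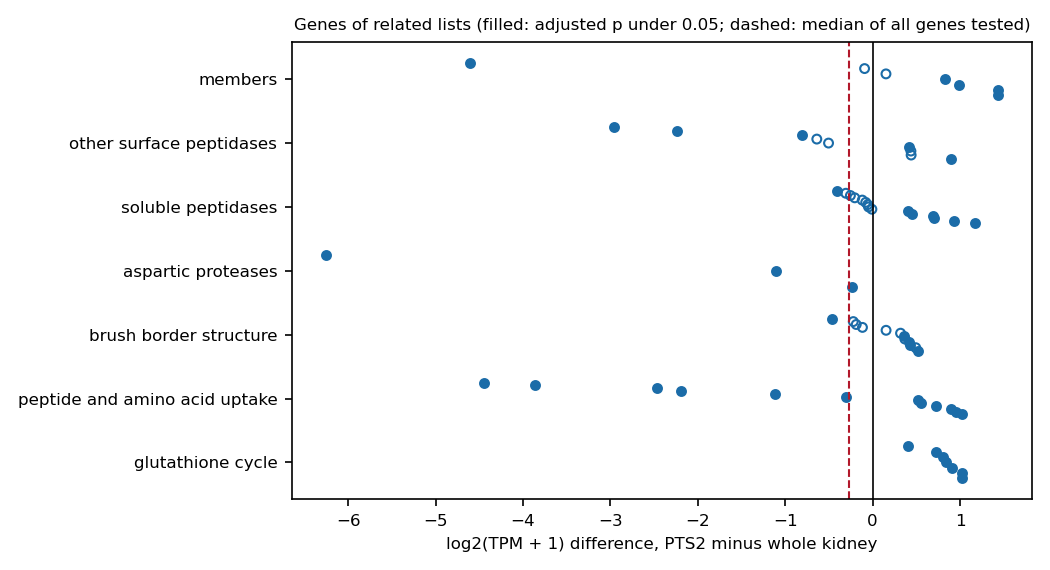
Difference in log2(TPM + 1) between PTS2 tubules and whole kidney for each tested gene of the 7 genes described here (members) and of 6 related lists; filled points passed the adjusted threshold of 0.05, and the dashed line is the median of all genes tested (-0.27). All 7 tested genes of the glutathione cycle list lie to the right of 0, and the peptide and amino acid transporters lie on both sides of it.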

How the data were processed

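The values were deposited by the authors as TPM, 1 row per gene and 1 column per library. Per the submitters' processing notes, STAR 2.5.1b, RSEM 1.2.31 and GRCm38.p5 were used. Per the labels' protocols, cDNA was made with the SMART-Seq V4 kit for very low input. Columns summed to 999999 to 1000001. The 7 genes and all lists were chosen with earlier results of these data known.

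Fits used limma 3.58.1 in R 4.3.3 (lmFit, eBayes with trend) on log2(TPM + 1), keeping genes that averaged 1 TPM or more, with Benjamini-Hochberg adjustment. Log differences understate changes of low genes. Tubules were set against whole kidney over 15 libraries, with the set (or whole kidney) as a correlated block (correlation 0.0957). An F test compared the 3 sets, and another the numbers 1 to 4 with the set as a term. The main fits, not the alternatives, were run on simulated data with independent noise in each library and no variation shared within a set. Genes named beyond the 7 were, per list, up to 4 with the largest called difference and the most abundant, and, per gene, the 3 with the highest Pearson r. List genes named for the number contrast were chosen after their values were seen. Positions come from GENCODE M21. Python 3.11.15 was used for the remaining steps.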

Additional observations from a re-analysis of the deposited data

Results flagged for a closer look

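In 3 of 42 tests of the 4 tubules of a set, over the 7 genes, 6 ratios and the summed level, a single tubule stood apart from the other 3 by more than Dixon's critical value allows. That criterion flags about 1 in 20 groups by chance.

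Anpep in replicate 4 of set m3 was at 23.43 TPM, where the next highest tubule of the set was at 16.4 TPM. In set m1, replicate 4 was likewise the highest, at 25.9 TPM, whereas in m2 it was at 17.4 TPM.

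The ratio of Mep1a to Mep1b in replicate 4 of set m1 was 4.6368, where the next highest ratio of the set was 2.5086. In the same tubule the ratio of Napsa to Ggt1 was 1.3581, where the next lowest ratio of the set was 2.3538. This tubule had the lowest Mep1b level of all 12, 229 TPM, and also the lowest Napsa level, 3470 TPM, while its Ggt1 level, 2555 TPM, lay among those of the other tubules.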

How the results depend on the processing

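Each of the 42 results for single genes was recomputed under 17 to 24 alternatives, 793 values in all. Of these, 743 kept their direction and side of the threshold, 19 lost the call, 11 gained it and 20 changed sign, each of the last for a difference that was not called. Napsa, Mep1a, Mep1b, Ggt1 and Dpep1 kept their direction and call against whole kidney under all 24. The count of called genes there, 5645, became 9582 with no filter on low values and 2725 with a mean of at least 10 TPM, and 6161 with each whole kidney library as its own block, an alternative added after seeing the data. Dpp4 changed sign against whole kidney, to 0.19 (median-of-ratios rescaling) and 0.11 (quantile normalization).

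Among sets, the 341 called genes became 196 with no filter and 197 to 563 with single tubules left out (563 without replicate 1 of m1, 197 without replicate 1 of m3). With the number as a replicate block, 888 genes were called, among them Napsa (F test adjusted p = 0.00247) and Mep1b (adjusted p = 0.0138). The numbers do not pair the samples by the criterion used: deviations from the set mean had r of 0.0254 to 0.273 between same-numbered tubules, over 0.1 in 7 of 12 pairs, and 9 of 12 tubules correlated best with their own number. Sign changes were Ggt1 m3 minus m1 (-0.066) and Dpep1 m3 minus m1 (-0.015) after rescaling, and Ggt1 m2 minus m1 (0.024) and Dpep1 m3 minus m1 (-0.050) after quantile normalization. With single tubules left out, Dpp4 m3 minus m1 ranged from -0.20 to 0.11, Ggt1 m2 minus m1 from -0.067 to 0.042, Ggt1 m3 minus m1 from -0.019 to 0.086, and Dpep1 m3 minus m1 from -0.15 to 0.29.

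Over the numbers, limma's 306 called genes became 0 with no filter (2871 at an unadjusted p under 0.05) and 0 without the set term (1419 at an unadjusted p under 0.05), and 75 to 507 with single tubules left out (75 without replicate 4 of m1, 507 without replicate 2 of m2). With no filter the F test gave adjusted p = 0.111 for Napsa, 0.134 for Mep1b and 0.200 for Mep1a. Anpep, number 4 minus number 1, ranged from -0.11 to 0.26 with single tubules left out. The cause of these shifts was not tested. Depth is unknown, so low values such as those of Dpep1 in tubules carry an unknown counting error.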
